A study of Homo sapiens with 2 samples.

Results

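The genes described here encode glucose and lactate transporters, the enzymes of glycolysis and lactate formation, regulators of that path, and targets of the hypoxia response outside it. They are 39 genes chosen by symbol for their function, with earlier results of these data known. All 39 were found among the 16951 genes of the count table. Of these, 26 belong to glycolysis and the handling of its end products, 12 are hypoxia targets with no step in glycolysis, and HIF1A encodes the regulated subunit of the hypoxia-inducible factor (HIF). The RNA came from FaDu, an established human line of squamous carcinoma of the hypopharynx. The design set cells with an shRNA against KIF2C, a kinesin that shortens microtubules, against cells with a control shRNA, with 1 library of each, both at day 2. Control cells carried blank vectors, and the labels name no clone, pool or oxygen level. The count table calls its libraries D1 and C1, and no label says which of them holds the knockdown, so every difference below is library D1 over library C1.

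Glycolysis splits glucose into pyruvate in the cytosol and yields ATP without oxygen, and squamous carcinoma lines commonly run it at a high rate and export lactate. When oxygen is scarce, prolyl hydroxylases stop marking the HIF alpha subunit for degradation, and HIF then binds short DNA elements near genes for glucose uptake, glycolysis, pH control, blood vessel growth and mitophagy. Most glycolytic genes are themselves HIF targets, but they also answer to other transcription factors and to nutrient supply. Comparing them with hypoxia targets outside glycolysis asks whether both groups differed between the libraries in the same way.

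KIF2C itself had 3036 reads in library D1 and 783 in library C1, a log2 ratio of 2.04. A knockdown lowers its target, so the library labelled D1 cannot be called the knockdown from these files. The totals were 18559977 reads in library D1 and 18189702 in library C1, after rounding of the estimated counts. Markers of squamous epithelium were all detected, 9 of 9, with a summed level of 4637 TPM in library D1 and 1475 TPM in library C1. Library D1 had the higher value by 2-fold or more for 6 of the 9. Among all genes at 1 CPM (reads scaled to library size) or more in either library the share was 2.4%. EPCAM and CDH1 of the same list were slightly lower in library D1, with log2 ratios of -0.08 and -0.19. Markers of other cells were low, as far as the count table holds them: 4 of 7 fibroblast, 3 of 6 endothelial and 6 of 7 leukocyte markers. The fibroblast list summed to 1.6 TPM in library D1 and 4.04 TPM in library C1. Nearly all of it was COL1A1 (82 and 199 reads), with COL3A1 at 1 and 0 reads. The muscle list summed to 1.37 and 0.78 TPM. The endothelial list summed to 7.4 TPM in library D1 and 29.2 TPM in library C1, nearly all of it CDH5 (249 and 1000 reads), while PECAM1 stayed at 0.22 and 0.21 TPM. The leukocyte list summed to 81.07 TPM in library D1 and 92.78 TPM in library C1, mostly the lysosomal gene CD68. CD14 had 120 and 215 reads, and PTPRC 0.75 and 1.25 TPM. The part of these marker differences in the results below was not tested. In RNA from whole cultures, fewer cells that express a gene and less of its RNA per cell cannot be told apart.

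The glycolysis genes were slightly higher in library D1 as a body, and none of them was 1.5-fold higher. Together the 26 genes took up 2.16% of all reads in library D1 and 1.92% in library C1, and without GAPDH, the most abundant of them, 1.32% and 1.19%. The median log2 ratio of the 26 was 0.21, with the middle of the list between 0.01 and 0.37, against 0.01 for the 13225 genes with at least 1 CPM (reads scaled to library size) in either library. Of the 26, 19 had a log2 ratio above 0, against 51.0% of those 13225 genes. With plain library totals 18 of the 26 lay above 0, against 38.1% of all genes, and in TPM 17, against 34.8%. Of the 2661 genes at 100 CPM or more, 64.5% were above 0 with the main scaling, 50.2% with plain totals and 45.5% in TPM. At that level 14 of the 16 glycolysis members were above 0 with the main scaling. Among the 82 genes averaging 1000 CPM or more the median ratio was 0.27, and the 5 glycolysis members among them had a median of 0.32, with 3 of the 5 above the class median. Among the 2321 genes between 100 and 1000 CPM the median was 0.11, and the 11 glycolysis members had a median of 0.21, with 9 above the class median. From 10 to 100 CPM the class median was 0.01 (7209 genes), and the 8 members had a median of 0.02, with 4 above the class median. With 1 library of each kind none of these differences had a replicate check.

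**Figure D1:**
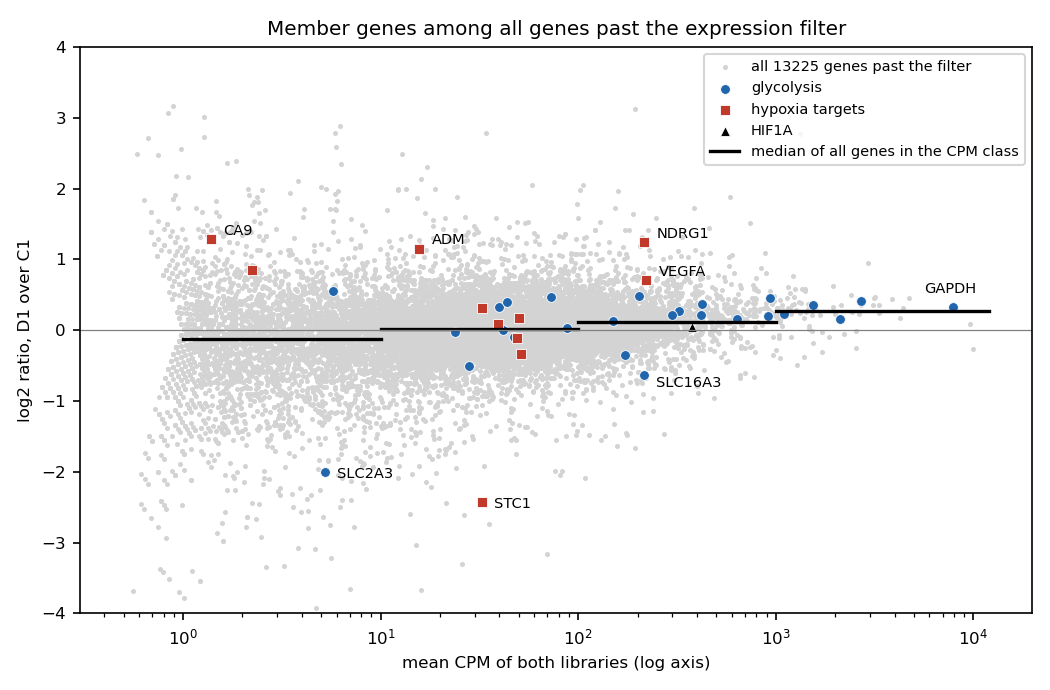
Log2 ratio of library D1 over library C1 (vertical axis) against mean CPM of both libraries (log axis) for 13225 genes in grey, with glycolysis members as blue circles, hypoxia targets as red squares and HIF1A as a black triangle; black bars are medians of all genes per CPM class. Glycolysis genes at 1000 CPM or more have a median of 0.32 beside a black bar at 0.27, while STC1 (-2.43), SLC2A3 (-2.00), NDRG1 (1.25) and ADM (1.15) stand away from them; 23 genes beyond 4 on the vertical axis are not drawn.

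Both glucose transporters were detected, and SLC2A1 carried nearly all of the signal. SLC2A1, the GLUT1 transporter of basal glucose uptake, had 8524 reads in library D1 and 7019 in library C1, or 280.76 and 241.16 TPM (the authors' length-corrected level). Its log2 ratio was 0.37, with a 95% counting interval of 0.33 to 0.42. SLC2A3, the high-affinity GLUT3 transporter on chromosome 12 from 7919230 to 7936187 (GRCh38.p14), had 37 reads in library D1 and 159 in library C1, or 1.06 and 4.81 TPM. Its ratio of -2.00 (-2.57 to -1.49) was the lowest of the glycolysis members. SLC2A3 made up 0.38% of the pair's TPM in library D1 and 1.96% in library C1. Its estimated counts were not whole, and SLC2A14 is a near-identical copy with which it can share reads, so the size of this difference is uncertain.

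On the upper path from glucose to triose phosphates, isoforms differed in direction. HK1, the hexokinase expressed in most cells, had 2696 reads in library D1 and 3658 in library C1, a ratio of -0.35 (-0.42 to -0.28). HK2, the inducible hexokinase of tumours, had 1502 reads in library D1 and 1159 in library C1, a ratio of 0.46 (0.35 to 0.58). HK1 remained the larger share in both libraries, with 73.8% of the pair's TPM in library D1 and 83.1% in library C1. Summed over both genes the hexokinase level was 113.6 TPM in library D1 and 141.9 TPM in library C1.

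Phosphofructokinase catalyses the committed step, and its platelet-type subunit PFKP had 4228 reads in library D1 and 3213 in library C1, a ratio of 0.49 (0.42 to 0.55). PFKL, the liver-type subunit, had 2791 and 2717 reads (0.13), and PFKM, the muscle-type subunit, 1593 and 1654 (0.04). The direction of PFKL reversed in the deposited TPM, and that of PFKM in the deposited TPM and FPKM and with plain library totals. PFKP held 52.6% of the family's TPM in library D1 and 46.0% in library C1. Upstream and downstream of this step, GPI, the isomerase of glucose 6-phosphate, had 8033 reads in library D1 and 7382 in library C1, a ratio of 0.21 (0.17 to 0.26). ALDOA, the main aldolase, had 39807 and 38073 reads (0.15, interval 0.13 to 0.17), and its deposited TPM was nearly level at 3020.01 in library D1 and 3016.46 in library C1. ALDOC, a minor aldolase with 817 and 928 reads, had -0.09 with an interval that held 0. TPI1, which interconverts the triose phosphates, had 19374 reads in library D1 and 15103 in library C1, a ratio of 0.45 (0.42 to 0.48). In all, 7 of the 9 upper genes lay above 0 with the main scaling, 6 with plain totals and 5 in TPM. The shares of all genes were 51.0%, 38.1% and 34.8%. At 100 CPM or more 5 of 6 upper genes lay above 0 with the main scaling, against 64.5% of all genes. Of the genes within 2-fold of its abundance, 48 of 64 had a higher ratio than ALDOA, and 42 of 237 a higher ratio than TPI1.

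**Figure D2:**
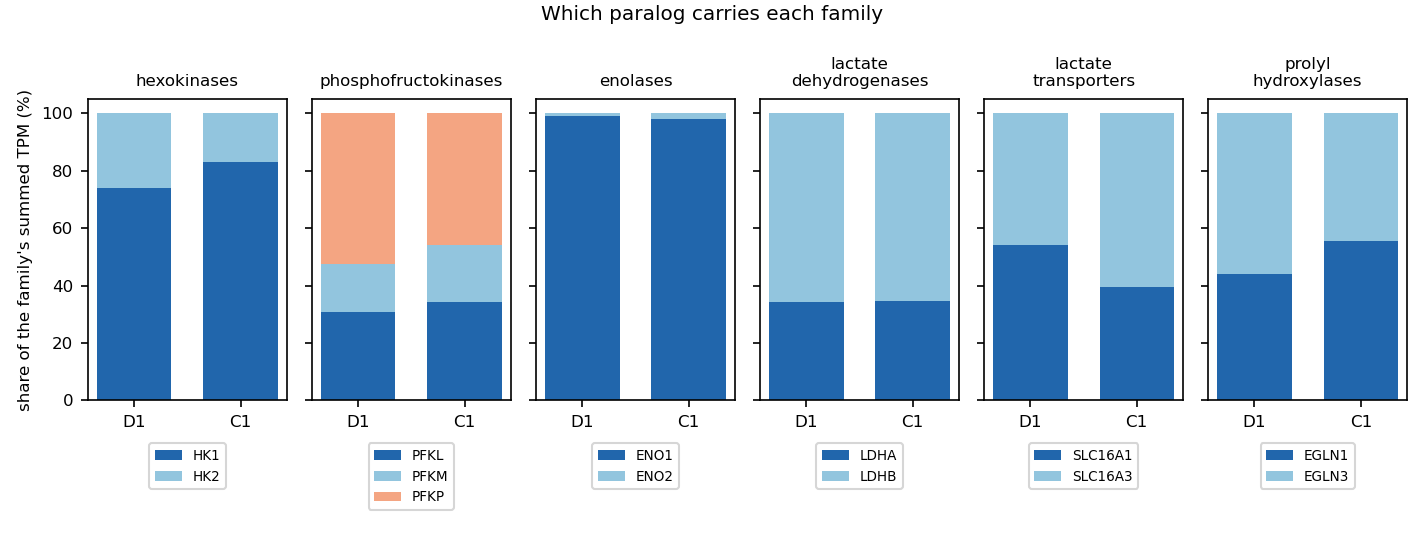
Share of each family's summed TPM (vertical axis, percent) held by each paralog in library D1 (left bar) and library C1 (right bar) of 6 families. HK2, PFKP, SLC16A1 and EGLN3 hold larger shares in library D1, while LDHA and LDHB hold nearly the same shares in both.

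The PFKFB enzymes set the level of fructose 2,6-bisphosphate, the activator of phosphofructokinase. PFKFB2, PFKFB3 and PFKFB4 were higher in library D1 under each of the 5 scalings, where 34.8% (TPM) to 51.0% (main scaling) of all genes were. The scalings use the same 2 libraries and shifted the median gene by -0.15 at most, so they are not separate checks. PFKFB1, outside the 39 genes, had 64 reads in library D1 and 57 in library C1 (0.26, interval -0.28 to 0.80). PFKFB3, the isoform with the strongest kinase activity, had 883 reads in library D1 and 713 in library C1, a ratio of 0.40 (0.26 to 0.54). PFKFB2 had 789 and 670 reads (0.33), and PFKFB4, a hypoxia-inducible isoform, 122 and 88 (0.56, interval 0.15 to 0.97). Their levels were modest, 23.86, 13.72 and 3.52 TPM for PFKFB3, PFKFB2 and PFKFB4 in library D1, and 19.8, 12.01 and 2.81 TPM in library C1.

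On the lower, ATP-yielding path 5 of 6 genes lay above 0 under each scaling, and the median was 0.30 with the main scaling. The share of all genes above 0 ran from 34.8% in TPM to 51.0% with the main scaling. At 100 CPM or more, where all 5 of these genes at that level lay above 0, it was 45.5% in TPM and 64.5% with the main scaling. Among the 82 genes averaging 1000 CPM or more it was 80.5% with the main scaling. Of the genes within 2-fold of its abundance, 251 of 420 had a higher ratio than PGAM1. The same held for 330 of 1134 for PGK1, 37 of 116 for ENO1, 10 of 43 for PKM and 1 of 6 for GAPDH. GAPDH, the dehydrogenase often used as a loading control, had 156504 reads in library D1 and 133093 in library C1, a ratio of 0.32 (0.31 to 0.33). Its deposited level, 13904.26 TPM in library D1 and 12333.83 TPM in library C1, was 2nd in rank among all genes of each library. PKM, pyruvate kinase, had 54798 and 43983 reads, a ratio of 0.41 (0.39 to 0.43). ENO1, the main enolase, had 30857 and 25554 reads (0.36), PGK1, the first ATP-forming kinase, 6339 and 5572 (0.28), and PGAM1, the mutase, 12026 and 11437 (0.16). These 5 abundant genes differed from each other by at most the distance between 0.16 and 0.41. ENO2, the neuronal enolase that tumours can express, went the other way with 413 reads in library D1 and 624 in library C1, a ratio of -0.51 (-0.69 to -0.32). It was a minor part of enolase mRNA, 1.03% of the TPM in library D1 and 1.86% in library C1. PGK1 stood low among these enzymes at 146.2 TPM in library D1 and 134.05 TPM in library C1. Each TPM of PGK1 stood for 43.4 reads in library D1 and 41.6 in library C1, against 15.8 and 15.2 for ENO1, so the TPM values of these genes rest on different effective lengths. ENO1, PGAM1 and PGK1 had estimated counts that were not whole, and reads shared with similar copies of a gene are divided by estimation.

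**Figure D3:**
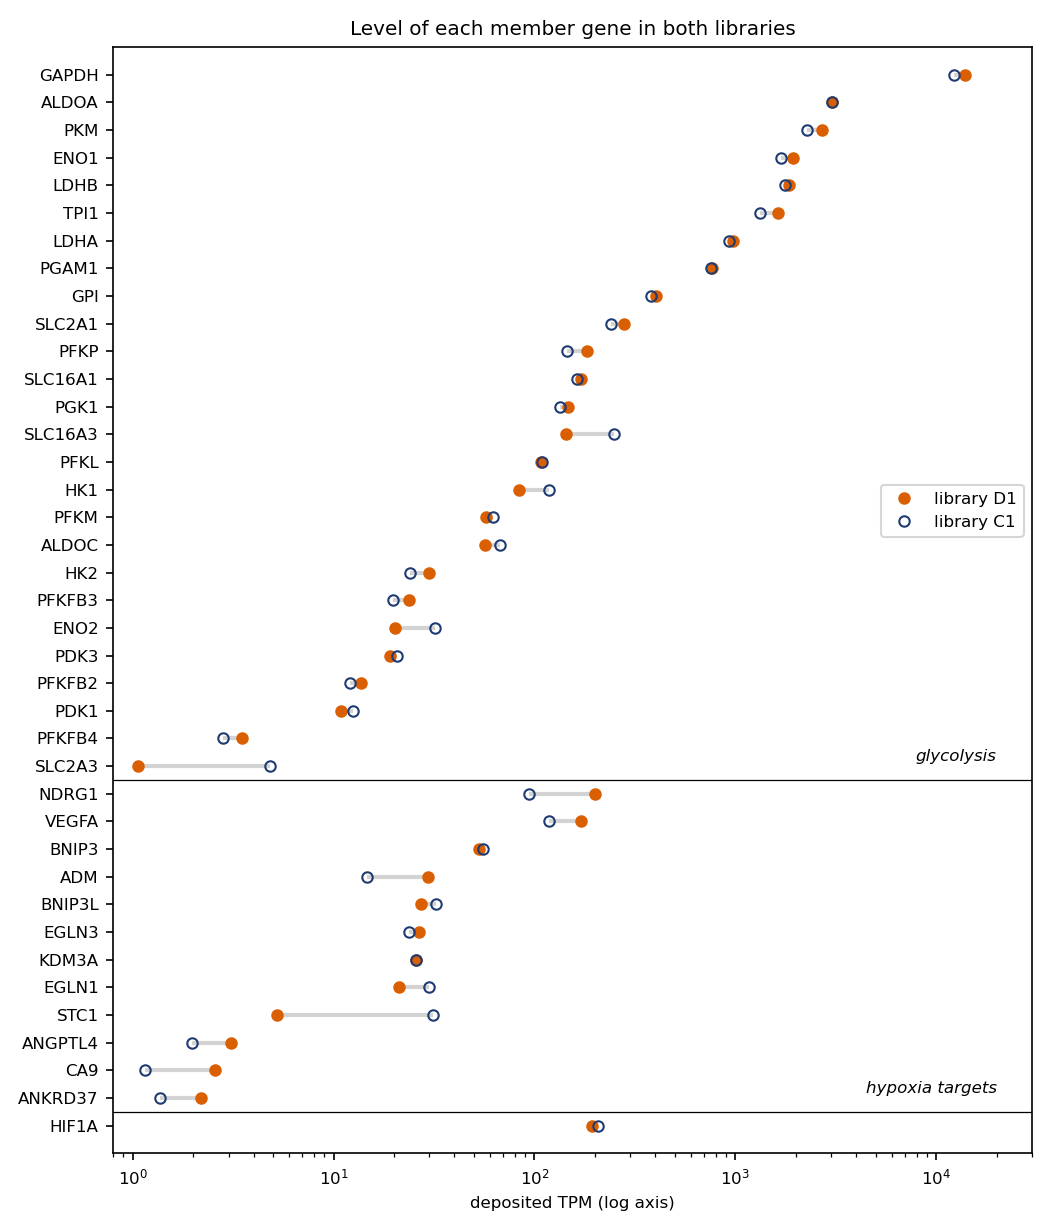
Deposited TPM (log axis) of each of the 39 genes in library D1 (filled orange) and library C1 (open blue), sorted by the level in library D1 within glycolysis and hypoxia targets. GAPDH leads at 13904.26 TPM in library D1 and 12333.83 TPM in library C1, and the widest gaps between the libraries belong to SLC2A3 and STC1, both lower in library D1.

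Genes for the fate of pyruvate and lactate had no common direction, with 3 of 6 above 0 under each scaling. The share of all genes above 0 was near that with the main scaling, 51.0%, and lower in TPM, 34.8%. The sign of the median of the 6 depended on the scaling (0.10 with the main scaling, -0.03 in TPM). LDHA, the subunit that favours lactate formation, had 17502 reads in library D1 and 16239 in library C1, a ratio of 0.20 (0.17 to 0.23). LDHB, the subunit that favours the reverse reaction, had 21137 and 19283 reads, a ratio of 0.22 (0.19 to 0.25). LDHA was 34.4% of the pair's TPM in library D1 and 34.7% in library C1, so the balance between the subunits barely differed. PDK1, a hypoxia-inducible kinase that shuts pyruvate dehydrogenase, had 422 and 458 reads (-0.03), and PDK3, a related kinase, 742 and 791 (-0.002), both with intervals that held 0.

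The lactate exporters differed in opposite directions. SLC16A1 (MCT1), which moves lactate both ways, had 5747 reads in library D1 and 5265 in library C1, a ratio of 0.22 (0.16 to 0.27). SLC16A3 (MCT4), the export form of hypoxic and glycolytic cells, on chromosome 17 from 82217934 to 82240086, had 3012 reads in library D1 and 4955 in library C1. Its ratio was -0.63 (-0.69 to -0.56), and 52 of 1927 genes within 2-fold of its abundance had a lower ratio. In TPM the larger transporter was SLC16A1 in library D1, with 170.35 TPM against 144.16 TPM for SLC16A3, and SLC16A3 in library C1, with 247.7 TPM against 162.69 TPM for SLC16A1. SLC16A3 and SLC2A3 were the 2 glycolysis members at least 1.5-fold lower in library D1, a share below the 10.6% of all genes past the filter, and at 100 CPM or more the share was 1 of 16 against 3.76%. SLC2A3 alone was at least 2-fold lower, against 4.54% of all genes and, at 100 CPM or more, none of 16 against 1.09%. None of the 26 was 1.5-fold or 2-fold higher, against 7.96% and 2.4% of all genes.

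The hypoxia targets outside glycolysis lay on both sides of the glycolysis genes. Of the 12, 11 passed the filter of 1 CPM in at least 1 library; by 2-fold or more 3 were higher in library D1 (2.4% of all genes) and 1 was lower (4.54%), and by 1.5-fold 5 were higher (7.96%) and 1 was lower (10.6%). One of the 3, CA9, passed the filter through library D1 alone, and ANKRD37 did not pass. The median absolute log2 ratio was 0.70 for the 11 hypoxia targets, against 0.33 for the 26 glycolysis members and 0.25 for all genes past the filter. At 10 CPM or more the median absolute ratios were close, 0.34 for 9 hypoxia targets and 0.30 for 24 glycolysis members. The ratios ran from -2.43 to 1.25 for these hypoxia targets and from -0.63 to 0.49 for these glycolysis members. ADM was among the 9 through library D1 alone, with 21.7 CPM there and 9.76 CPM in library C1. The signed medians, 0.31 for the hypoxia targets and 0.21 for the glycolysis members, were 0.10 apart, and the order turned round when genes under 10 CPM were left out (0.18 for 9 hypoxia targets and 0.21 for 24 glycolysis members).

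NDRG1, a stress-responsive gene linked to suppression of metastasis, on chromosome 8 from 133237175 to 133297252, had 5423 reads in library D1 and 2436 in library C1, or 199.57 and 94.18 TPM. Its ratio was 1.25 (1.18 to 1.31), and 16 of 1916 genes of like abundance had a higher ratio. VEGFA, the growth factor of blood vessels, had 4870 reads in library D1 and 3187 in library C1, a ratio of 0.70 (0.64 to 0.77). NDRG1 and VEGFA were the hypoxia targets at 100 CPM or more, where 2.52% of all genes were at least 2-fold higher and 9.32% at least 1.5-fold higher. ADM, the vasodilator peptide adrenomedullin on chromosome 11 from 10305073 to 10307397, had 387 reads in library D1 and 185 in library C1, a ratio of 1.15 (0.90 to 1.42). CA9, the membrane carbonic anhydrase widely used as a hypoxia marker, on chromosome 9 from 35673928 to 35681159, had 35 and 15 reads, a ratio of 1.29 (0.40 to 2.29). ANGPTL4, a secreted inhibitor of lipoprotein lipase, had 51 and 30 reads (0.85, interval 0.18 to 1.56), and ANKRD37, an ankyrin repeat protein, 15 and 9 (0.80, interval -0.46 to 2.20). CA9, ANGPTL4 and ANKRD37 were near the limit of what this depth can resolve: CA9 reached 2.57 TPM in library D1 and 1.15 TPM in library C1.

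STC1, a secreted glycoprotein induced by hypoxia, went against these genes. STC1, on chromosome 8 from 23841929 to 23854806, had 181 reads in library D1 and 1041 in library C1, or 5.21 and 31.23 TPM. Its ratio of -2.43 (-2.67 to -2.21) was the largest difference of the 39 genes, and 5 of 4771 genes of like abundance had a lower ratio.

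The remaining hypoxia targets stayed within 1.5-fold. EGLN1 encodes PHD2, the main oxygen-sensing prolyl hydroxylase, and had 805 reads in library D1 and 1083 in library C1, a ratio of -0.34 (-0.47 to -0.21). EGLN3, the PHD3 hydroxylase that HIF induces strongly, had 644 and 552 reads, a ratio of 0.31 (0.15 to 0.48). EGLN3 was the larger share of this pair in library D1, with 55.9% of the TPM, and the smaller in library C1, with 44.4%. The mitophagy receptors BNIP3 and BNIP3L had 723 and 840 reads in library D1, and 724 and 965 in library C1. Their ratios, 0.09 for BNIP3 and -0.11 for BNIP3L, had intervals that held 0, and that of BNIP3 turned negative with plain totals, TPM and FPKM. KDM3A, a hypoxia-induced histone demethylase, had 948 and 892 reads (0.18, interval 0.05 to 0.31), with the direction turned round in TPM. HIF1A mRNA had 6845 reads in library D1 and 7030 in library C1, a ratio of 0.05 that turned negative with plain totals, TPM and FPKM. HIF activity is set chiefly by protein stability, which these data do not measure.

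**Figure D4:**
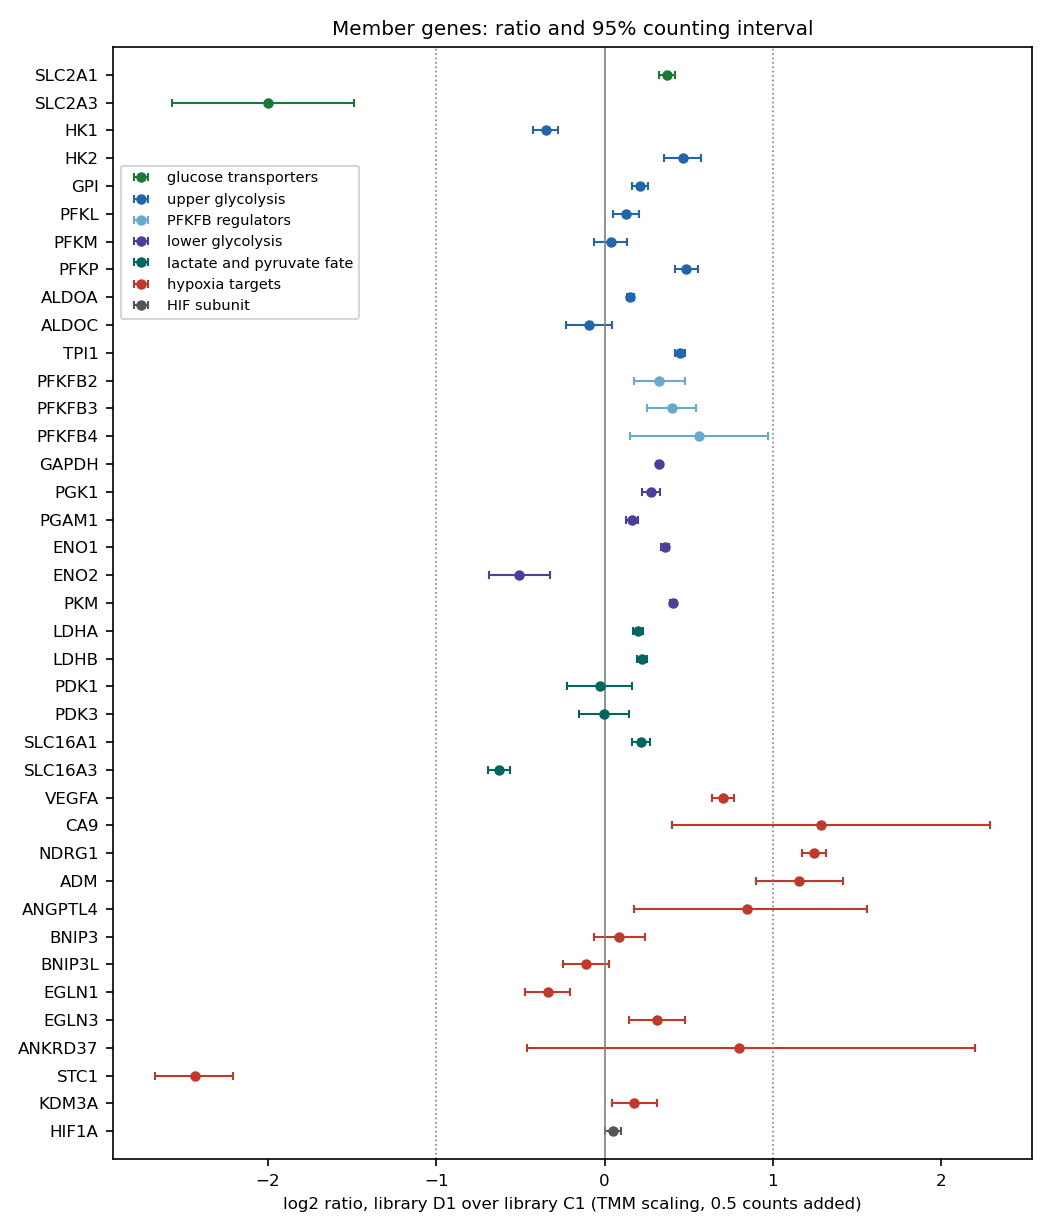
Log2 ratio of library D1 over library C1 (horizontal axis) with its 95% counting interval for each of the 39 genes, coloured by role; dotted lines mark 2-fold. Most glycolysis genes sit between 0 and 0.56, while hypoxia targets run from -2.43 for STC1 to 1.29 for CA9, whose interval of 0.40 to 2.29 is wide.

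HIF binds the core letters ACGTG or GCGTG, and the start regions of 4 genes are shown. CA9 and ADM were hypoxia targets at least 2-fold higher in library D1, CA9 on only 35 and 15 reads. LDHA and BNIP3 carry many such letters and barely differed. Because they were picked by their ratios, these 4 start regions cannot show whether letters and ratios go together. Each of these 4 runs is the 300 bases from 250 upstream to 50 downstream of the RefSeq gene start in GRCh38.p14, 5′ to 3′ on the gene's strand, and capitals mark ACGTG or GCGTG on either strand (CACGT and CACGC when read on the other). Overlapping matches are joined into a single stretch. CA9 (chr9:35673678-35673977, plus strand) and ADM (chr11:10304823-10305122, plus strand) have 1 stretch each. LDHA (chr11:18394313-18394612, plus strand) has 4 and BNIP3 (chr10:131981874-131982173, minus strand) has 5.
CA9: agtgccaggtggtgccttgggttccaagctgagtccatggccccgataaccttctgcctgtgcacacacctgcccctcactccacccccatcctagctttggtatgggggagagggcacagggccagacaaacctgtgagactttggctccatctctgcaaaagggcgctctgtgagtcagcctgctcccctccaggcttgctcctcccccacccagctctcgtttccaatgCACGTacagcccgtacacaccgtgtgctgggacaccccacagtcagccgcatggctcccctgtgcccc
ADM: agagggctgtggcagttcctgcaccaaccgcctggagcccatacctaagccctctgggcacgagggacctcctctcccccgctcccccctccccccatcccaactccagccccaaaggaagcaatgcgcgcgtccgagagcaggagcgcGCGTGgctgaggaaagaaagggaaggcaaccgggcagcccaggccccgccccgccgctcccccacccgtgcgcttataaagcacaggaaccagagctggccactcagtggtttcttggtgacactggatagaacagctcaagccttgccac
LDHA: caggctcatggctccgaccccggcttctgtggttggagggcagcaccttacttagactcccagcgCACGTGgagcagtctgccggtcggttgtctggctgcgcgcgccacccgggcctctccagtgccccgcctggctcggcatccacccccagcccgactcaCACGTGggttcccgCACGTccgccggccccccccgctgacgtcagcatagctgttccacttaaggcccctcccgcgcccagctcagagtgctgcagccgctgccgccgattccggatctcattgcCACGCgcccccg
BNIP3: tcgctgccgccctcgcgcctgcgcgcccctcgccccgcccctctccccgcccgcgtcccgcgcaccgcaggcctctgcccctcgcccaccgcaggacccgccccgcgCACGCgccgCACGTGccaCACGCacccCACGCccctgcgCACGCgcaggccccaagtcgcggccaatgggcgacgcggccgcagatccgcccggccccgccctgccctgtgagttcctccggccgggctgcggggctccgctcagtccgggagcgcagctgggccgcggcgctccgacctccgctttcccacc

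Start regions were matched for 32 of the 39 genes. STC1 (-2.43), SLC2A3 (-2.00), NDRG1 (1.25) and VEGFA (0.70) were among those without one, so some of the largest differences are missing here. In 22 the window sits at the outer end of the gene, and in 10, SLC16A3, GPI, PGAM1, GAPDH and PFKP among them, at a start 111 to 10501 bases away from it. At least 1 stretch was present in 16 of 23 glycolysis genes (69.6%) and 7 of 8 hypoxia targets (87.5%), against 62.7% of 10781 genes past the expression filter with a start region and 48.4% of all 27305 start regions. Among the genes with a start region, the number of stretches did not order the ratios. The 8 genes with 2 or more stretches had a median ratio of 0.24. Among them were BNIP3 (0.09), LDHA (0.20) and ALDOC (-0.09), but also HK2 (0.46) and the sparse ANKRD37 (0.80). The 15 genes with 1 stretch, among them CA9 and ADM, had a median of 0.32 and ran from -0.51 to 1.29. The 8 genes with none had a median of 0.10 and ran from -0.63 for SLC16A3 to 0.49 for PFKP. These letters are common in promoters, and their presence is no evidence that HIF was bound.

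Other genes of the same pathways were read from lists of which up to 4 members each are named, by size of ratio at 5 CPM or more. In the list of pyruvate entry into mitochondria 10 of 12 genes past the filter lay below 0, with DLAT (0.26) and PDP2 (0.12) above it. The counting interval lay below 0 for 6 of the 12, held 0 for 5, PDP2 among them, and lay above 0 for 1. The median was -0.19, against 0.01 for all genes, of which 51.0% lay above 0, and 3 of the 12 were 1.5-fold or more lower, against 10.6% of all genes. PC, pyruvate carboxylase, had 1074 reads in library D1 and 2116 in library C1, a ratio of -0.89 (-0.99 to -0.78). SLC16A7, a high-affinity monocarboxylate carrier, had 154 and 298 reads (-0.86), PDP1, the phosphatase that reactivates pyruvate dehydrogenase, 2856 and 4581 (-0.59), and MPC1, a subunit of the mitochondrial pyruvate carrier, 294 and 404 (-0.37). The other glycolysis and gluconeogenesis genes had 13 of 18 above 0, against 51.0% of all genes, and a median of 0.23. With plain totals or TPM 10 of the 18 lay above 0, against 38.1% and 34.8% of all genes. By 2-fold or more 1 was higher and 2 were lower, against 2.4% and 4.54% of all genes. These were HKDC1 (1.72), FBP2 (-1.62) and SLC2A12 (-1.18), all under 5 CPM in both libraries. HKDC1 and SLC2A4 (0.33) passed the filter through library D1 alone, and FBP2 through library C1 alone. PGM2, a phosphopentomutase, had 964 reads in library D1 and 630 in library C1 (0.70), BPGM, the source of 2,3-bisphosphoglycerate, 159 and 114 (0.57), PGAM5, a mitochondrial phosphatase, 2728 and 2067 (0.49), and the transporter gene SLC2A6 216 and 328 (-0.51).

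A longer list of hypoxia targets was also mixed. Among 33 genes past the filter the median was -0.11. Of the 33, 14 lay above 0, or 10 with plain totals or TPM, against 51.0%, 38.1% and 34.8% of all genes. By 2-fold or more 2 were higher and 1 was lower, against 2.4% and 4.54% of all genes, and by 1.5-fold 3 were higher and 7 lower, against 7.96% and 10.6%. DDIT4, a stress-induced inhibitor of mTORC1, had 2677 reads in library D1 and 954 in library C1, a ratio of 1.58 (1.47 to 1.69). CITED2, which competes with HIF for its coactivators, had 539 and 1477 reads (-1.36), and the collagen-crosslinking oxidases LOXL2 and LOX had 2146 and 47 reads in library D1, and 4337 and 95 in library C1, with ratios of -0.93 for LOXL2 and -0.92 for LOX. The HIF machinery had 8 of 15 genes above 0, or 3 in TPM, against 51.0% and 34.8% of all genes. None of the 15 was at 2-fold, against 2.4% higher and 4.54% lower among all genes. EPAS1, the HIF2A subunit, had 1189 reads in library D1 and 2014 in library C1, a ratio of -0.67 (-0.78 to -0.57). ARNT2, a partner subunit, had 94 and 173 reads (-0.79), HIF1AN, the asparagine hydroxylase that curbs HIF, 1653 and 2317 (-0.40), and SIAH2, a ubiquitin ligase for prolyl hydroxylases, 956 and 720 (0.50).

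In the branches off glycolysis no gene was 1.5-fold higher or lower among 7 pentose phosphate genes and 7 glycogen genes, against 7.96% higher and 10.6% lower among all genes. In the pentose phosphate branch 5 of 7 lay above 0, or 3 in TPM, against 51.0% and 34.8% of all genes. PGLS, a lactonase, had 565 reads in library D1 and 461 in library C1 (0.38), RPIA, an isomerase, 309 and 290 (0.18), and TKT, transketolase, 12802 and 12066 (0.18). In the glycogen branch 5 of 7 lay above 0, or 3 in TPM, beside the same shares of all genes. GYS1, glycogen synthase, had 779 reads in library D1 and 630 in library C1 (0.40), PYGL, a phosphorylase, 3246 and 2763 (0.32), and GBE1, the branching enzyme, 283 and 344 (-0.19).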

How the data were processed

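RNA-seq of FaDu cells gave 2 libraries, 1 per condition, named D1 and C1 in the authors' table. The deposited table holds estimated counts, without normalization, beside TPM and FPKM, all as the authors computed them and as its column names state. Bowtie2, RSEM and hg38 appear in the submitters' processing notes, with no version or annotation in the sources used here. The estimated counts were rounded and scaled by TMM in edgeR 4.0.16 (R 4.3.3), so that 1 CPM stands for 17.8 reads in library D1 and 19.0 in library C1. Ratios had 0.5 counts added per library, and intervals are exact 95% Clopper-Pearson intervals, which cover counting error only. With 1 library per condition no test was possible and no p-value is given. Of the 39 genes, 18 had estimated counts that were not whole in at least 1 library. The genes, lists and rules were chosen with earlier results of these data known. Fully described are genes at 2-fold or at 100 CPM or more, and up to 4 per further list, of which some are not reported here. Coordinates and start regions are from RefSeq on GRCh38.p14, matched by NCBI gene identifier for all 39 and 32 genes. Alternatives were plain totals, DESeq2 1.42.0 size factors, deposited TPM and FPKM, 5 counts added, other filters, whole counts only and, chosen after seeing the data, the 17 enzymes alone. The ratio procedure was tested on simulated data with counting error only, scaled by plain totals, with known folds given only to well-counted genes. That test did not cover TMM scaling, variation between libraries of a condition, or sparse genes such as CA9.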

Additional observations from a re-analysis of the deposited data

How the results depend on the processing

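No paired analysis was possible because each condition has 1 library. Plain totals, TPM and FPKM shifted the median gene by -0.12, -0.15 and -0.12, and moved the glycolysis median (0.21) to 0.10, 0.069 and 0.10 and the hypoxia target median (0.31) to 0.19, 0.17 and 0.20. The distance of the glycolysis median from that of all genes was nearly kept. Of the 39 ratios, 3 changed sign with plain totals or FPKM and 5 in TPM, none of them 1.5-fold, and none with DESeq2 size factors or 5 counts added. Without a filter the hypoxia median was 0.51 and the difference between the groups 0.29, against 0.10 with it. At 10 CPM or more the hypoxia median was 0.18, the difference reversed to -0.036, and 1 glycolysis gene was 1.5-fold lower and 0 2-fold lower. There 3 hypoxia targets were 1.5-fold higher, among them ADM, which reached 10 CPM in library D1 alone. At 100 CPM or more, 2 hypoxia targets were left, both above 0 and 1.5-fold higher, 1 of them 2-fold higher and 0 lower at either fold, with a median of 0.97 and a difference of 0.75; 1 glycolysis gene was 1.5-fold lower and 0 2-fold lower. With whole counts only, the medians were 0.37 for glycolysis (10 above 0, and 0 lower at either fold) and 0.70 for hypoxia targets, a difference of 0.33. Among the 17 enzymes alone 0 were lower at either fold. The 3 glycolysis genes 1.5-fold lower under plain totals, TPM and FPKM compare with 2 in the main setting, and the hypoxia targets higher by 1.5-fold were 4 there against 5. Depth limits CA9, ANGPTL4 and ANKRD37, and the lack of a second library per condition limits every difference.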
